A study of Rattus norvegicus with 8 samples.

Results

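The genes described here encode the ionotropic and metabotropic glutamate receptors and the scaffold proteins beneath them at excitatory synapses. They were taken by name: every probe whose transcript record maps to 1 of 43 listed genes was read from the 8 arrays, whatever its value. All 43 genes were measured, with 60 of the 30367 probes and among 22459 genes and unnamed accessions tested. They comprise 4 AMPA receptor subunits, 4 auxiliary subunits of AMPA receptors, 6 NMDA receptor subunits, 5 kainate receptor subunits, 6 metabotropic receptors, 13 scaffolds, 2 CaMKII subunits and 3 neuroligins. Every gene was well above background on 8 of 8 arrays in both channels.

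Glutamate released from a presynaptic terminal opens AMPA receptors, which carry fast excitation, and NMDA receptors, which admit calcium when the membrane is already depolarised. Calcium entry activates CaMKII, the kinase that adjusts synaptic strength, while scaffold proteins of the PSD-95, SAPAP, SHANK and HOMER families hold receptors in place and neuroligins bridge the cleft. Oligomers of amyloid-beta are known to bind near such synapses and to reduce surface glutamate receptors in cultured neurons.

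Cortical and hippocampal neurons of Sprague Dawley rats, taken at embryonic day 18 (E18), had grown for 7 days in vitro. CAT-SKL is a catalase-derived antioxidant directed to peroxisomes, and ADDL are soluble amyloid-beta oligomers. The 4 groups were CAT-SKL alone, ADDL alone, CAT-SKL and then ADDL (CAT-SKL+ADDL), and ADDL and then CAT-SKL (ADDL+CAT-SKL), with each agent at 1 µM for 24 h and the order in a combined name read as the order of treatment. Every array compared treated RNA in Cy5 with RNA of vehicle-treated neurons in Cy3, and each group had 2 arrays that the submitters call biological replicates. Which vehicle culture lies on which array is not given, and the labels give no difference in strain or genotype between groups. The labels do not say how many embryos were pooled.

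All values below are log2 ratios of treated over vehicle, so 0 means no difference and positive values mean more RNA in treated neurons. Because vehicle was present only as the partner on each array, a treatment was tested as its ratio against 0 in limma, with 0.05 as the threshold for the adjusted p. Such a test takes in the spread of vehicle cultures only if the arrays of a group carried different ones, which is not given. Without a dye swap, a dye effect of a probe cannot be told apart from the treatment. In the vehicle channel itself, the SD over the 8 arrays ran between 0.0233 (Gria2) and 0.149 (Grin2d) over the 43 genes, with a median of 0.0512.

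The CAT-SKL+ADDL arrays stood apart from the rest before any gene was considered. Their differences over 14330 probes had an SD of 0.0850, against 0.0841 for the noise between duplicate spots, a ratio of 1.01. The correlation of their differences between first and second spots was 0.0108, whereas the other 27 pairs of arrays had ratios between 1.36 and 2.44 and correlations between 0.298 and 0.713. They therefore differed by less than other replicates did, within spot noise, and were averaged and counted as 1 sample, which left 7 samples in the fit and an error for this group borrowed from the others. The single treatments also occupied 1 row of the slide and the sequential treatments the other, so the effects of slide row, total duration and sequence cannot be told apart. Columns 1 and 2 of the slide held the CAT-SKL and CAT-SKL+ADDL arrays, and columns 3 and 4 the ADDL and ADDL+CAT-SKL arrays. Differences between CAT-SKL and ADDL, and between the orders of treatment, therefore cannot be told apart from slide column.

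Across the genes, values below vehicle were in the majority on 7 of 8 arrays. Of the 43 genes, 31 in CAT-SKL 1, 22 in CAT-SKL 2, 31 in ADDL 1 and 26 in ADDL 2 lay below vehicle. The number was 30 in CAT-SKL+ADDL 1, 28 in CAT-SKL+ADDL 2, 19 in ADDL+CAT-SKL 1 and 30 in ADDL+CAT-SKL 2. Among all genes tested, the share below vehicle was between 49.3% and 51.6%, and among the 43 genes it ranged between 44.2% and 72.1%. The median of the 43 genes was small in every group, -0.04 after CAT-SKL, -0.07 after ADDL, -0.07 after CAT-SKL+ADDL and -0.02 after ADDL+CAT-SKL, against -0.00 for all genes in each. In RNA from a whole culture, fewer cells of a type and less RNA per cell cannot be told apart.

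**Figure D1:**
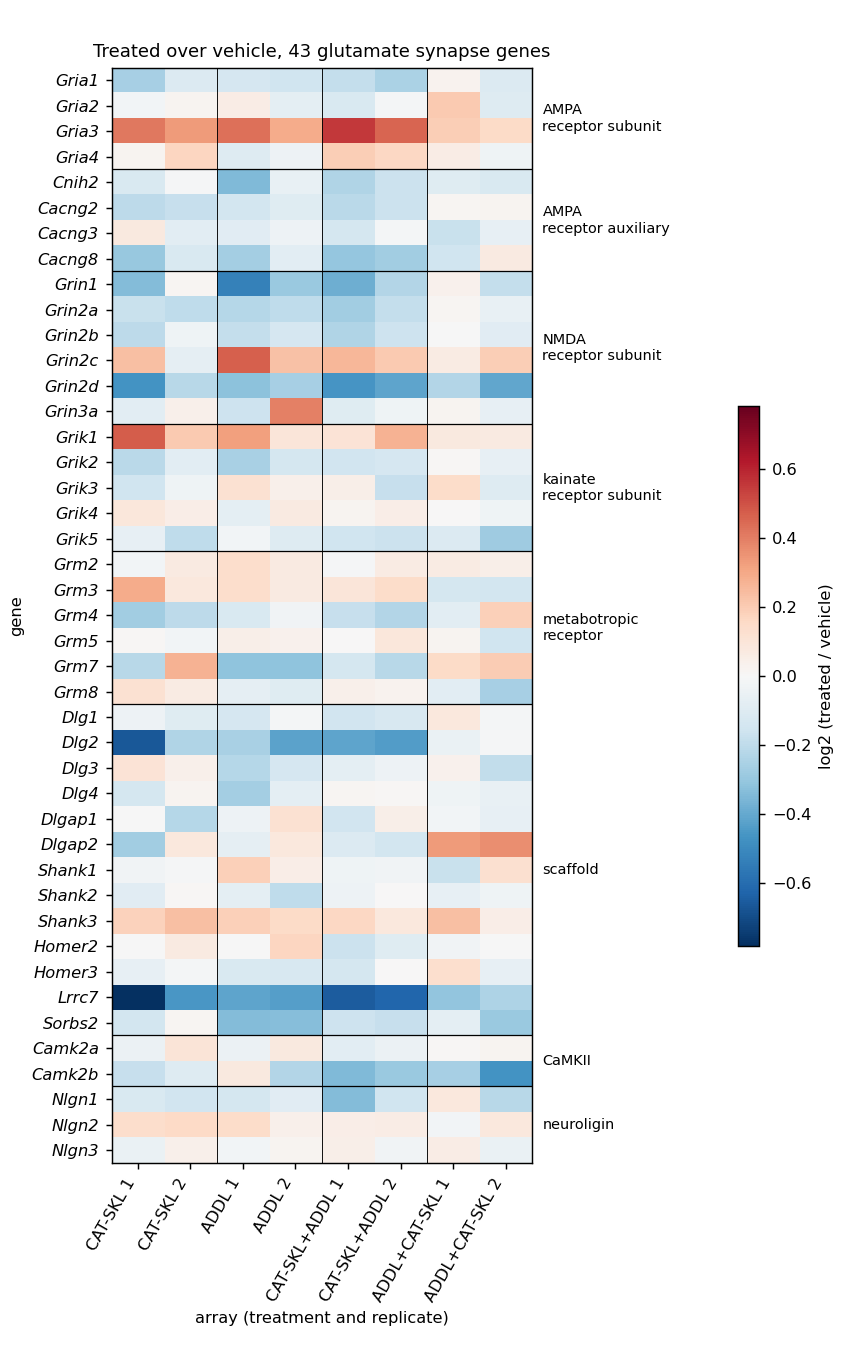
Log2 ratio of treated over vehicle (colour scale) for each of the 43 genes (rows, grouped by class) on each of the 8 arrays (columns, by treatment and replicate). Lrrc7 is low and Gria3 high on every array, Dlg2 is between -0.67 and -0.24 on 6 arrays and near 0 on both ADDL+CAT-SKL arrays, and most other cells lie close to 0.

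In the AMPA receptor, the subunit gene Gria3 rose after CAT-SKL, while Gria1, whose subunit is delivered to synapses during potentiation, had values below vehicle on 7 of 8 arrays. The map of log2 ratios by array shows Gria3 as the only AMPA subunit with a positive ratio on every array. Gria3 stood at 0.41 and 0.33 on the CAT-SKL arrays, 0.43 and 0.29 on the ADDL arrays, 0.55 and 0.46 on the CAT-SKL+ADDL arrays and 0.19 and 0.15 on the ADDL+CAT-SKL arrays. The ADDL+CAT-SKL arrays were the lowest and the CAT-SKL+ADDL arrays the highest, with no overlap between these groups. The log2 change was 0.37 ± 0.06 after CAT-SKL (SE, n = 2, limma adjusted p = 0.0346), and Gria3 was 1 of 2 members past the threshold there (4.65% of 43), against 2.62% of all genes tested. It was 0.36 ± 0.06 after ADDL (SE, n = 2, adjusted p = 0.0714). After CAT-SKL+ADDL it was 0.51 ± 0.08 (n = 1, adjusted p = 0.201), and after ADDL+CAT-SKL 0.17 ± 0.06 (n = 2, adjusted p = 0.185).

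The Gria3 result rested on 1 probe. A dimmer probe, designed on another Gria3 transcript record, averaged -0.05 after CAT-SKL, 0.06 after ADDL, -0.11 after CAT-SKL+ADDL and -0.11 after ADDL+CAT-SKL. Whether the probes read different transcripts was not tested. With the mean of both probes Gria3 had a log2 change of 0.16 after CAT-SKL (limma adjusted p = 0.260). The call also depended on single arrays: the adjusted p was 0.406 without CAT-SKL 1, 0.0608 without CAT-SKL 2, 0.0511 without ADDL 1 or ADDL 2, and 0.0522 without ADDL+CAT-SKL 1 or 2.

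Gria1 had -0.26 and -0.11 on the CAT-SKL arrays, -0.13 and -0.16 on the ADDL arrays, -0.19 and -0.25 on the CAT-SKL+ADDL arrays and 0.03 and -0.11 on the ADDL+CAT-SKL arrays. All 6 arrays of the first groups lay below vehicle, and the ADDL+CAT-SKL arrays lay on both sides of it. The CAT-SKL change was -0.19 ± 0.06 (SE, n = 2, limma adjusted p = 0.138) and did not pass. Gria2, whose subunit blocks calcium entry through the AMPA channel, ranged between -0.12 and 0.21 over the 8 arrays, and Gria4 between -0.10 and 0.19.

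The median of the auxiliary subunits of AMPA receptors was below vehicle in every group. It was -0.13 after CAT-SKL, -0.15 after ADDL, -0.20 after CAT-SKL+ADDL and -0.07 after ADDL+CAT-SKL, and none of the 4 passed the threshold in limma. Cacng2, which encodes stargazin, the transmembrane partner that carries AMPA receptors to the synapse, had -0.20 and -0.18 on the CAT-SKL arrays, -0.15 and -0.09 on the ADDL arrays, -0.21 and -0.17 on the CAT-SKL+ADDL arrays and 0.01 and 0.02 on the ADDL+CAT-SKL arrays. Its ADDL+CAT-SKL arrays were higher than all the others and at the vehicle level. The CAT-SKL change of Cacng2 was -0.19 ± 0.05 (SE, n = 2, adjusted p = 0.0832), and -0.05 with median centring in place of loess (adjusted p = 0.786). Cnih2, which encodes a cornichon protein that slows AMPA receptor deactivation, was below vehicle on 8 of 8 arrays, with -0.12 and -0.01 after CAT-SKL, -0.35 and -0.06 after ADDL, -0.24 and -0.17 after CAT-SKL+ADDL and -0.09 and -0.12 after ADDL+CAT-SKL. Its ADDL arrays lay far apart, and the ADDL change was -0.20 ± 0.07 (SE, n = 2, adjusted p = 0.193). Cacng8, of the same family as stargazin, ranged between -0.30 and 0.07, and Cacng3 between -0.18 and 0.08.

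Among the AMPA, NMDA, kainate and metabotropic classes, NMDA receptor subunits had the lowest median in every group. The median of these subunits was -0.14 after CAT-SKL, -0.18 after ADDL, -0.22 after CAT-SKL+ADDL and -0.03 after ADDL+CAT-SKL. Of these 6 genes, Grin2d, the gene of a subunit that gives slowly decaying currents and is prominent early in development, was below vehicle in every sample. It had -0.47 and -0.21 on the CAT-SKL arrays, -0.32 and -0.26 on the ADDL arrays, -0.46 and -0.41 on the CAT-SKL+ADDL arrays and -0.23 and -0.40 on the ADDL+CAT-SKL arrays. No treatment stood apart from the others in this gene, since the ranges of the CAT-SKL, ADDL and ADDL+CAT-SKL arrays overlapped. The changes were -0.34 ± 0.07 after CAT-SKL, -0.29 ± 0.07 after ADDL and -0.32 ± 0.07 after ADDL+CAT-SKL (SE, n = 2 each), with limma adjusted p of 0.0540, 0.106 and 0.0953 in that order, and -0.44 after CAT-SKL+ADDL (n = 1, adjusted p = 0.209), so none passed. With median centring in place of loess the CAT-SKL change of Grin2d was -0.11 (adjusted p = 0.581). The vehicle level of Grin2d was also the most variable of the 43 genes, at 14.66 and 14.57 on the CAT-SKL+ADDL arrays (log2 intensity after quantile scaling) and between 14.26 and 14.36 on the others.

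Grin1, which encodes the subunit present in every NMDA receptor, was most below vehicle in ADDL-treated neurons on its brighter probe. The values of that probe were -0.34 and 0.01 on the CAT-SKL arrays, -0.53 and -0.29 on the ADDL arrays, -0.38 and -0.23 on the CAT-SKL+ADDL arrays and 0.03 and -0.18 on the ADDL+CAT-SKL arrays. The CAT-SKL arrays disagreed with each other, and ADDL+CAT-SKL lay above ADDL on both arrays. The ADDL change was -0.41 ± 0.10 (SE, n = 2, limma adjusted p = 0.0938). The dimmer probe ordered the groups differently, with -0.22 after CAT-SKL, -0.06 after ADDL, -0.18 after CAT-SKL+ADDL and 0.01 after ADDL+CAT-SKL, and the mean of both probes gave an ADDL change of -0.24 (adjusted p = 0.215). Grin2a, a subunit of mature synapses, was between -0.27 and -0.18 on the 6 arrays other than ADDL+CAT-SKL, where it had 0.02 and -0.06. Its change was -0.21 ± 0.05 after ADDL (adjusted p = 0.0999) and -0.19 ± 0.05 after CAT-SKL (adjusted p = 0.0921). Grin2b, the main subunit of young cortical neurons, was below vehicle on 8 of 8 arrays, between -0.24 and -0.00. Grin2c had the opposite sign, with 0.47 and 0.23 on the ADDL arrays and values between -0.07 and 0.26 elsewhere, and Grin3a ranged between -0.16 and 0.40. Grin2a, Grin2b, Grin2c and Grin3a are named here after their values were seen.

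Kainate receptor genes differed in sign, with Grik1 above vehicle and Grik2 mostly below it. Grik1, a subunit gene prominent in interneurons, had 0.47 and 0.21 after CAT-SKL, 0.32 and 0.09 after ADDL, 0.11 and 0.27 after CAT-SKL+ADDL and 0.07 and 0.07 after ADDL+CAT-SKL. All 8 values were positive, and the ADDL+CAT-SKL arrays were the lowest. The CAT-SKL change was 0.34 ± 0.08 (SE, n = 2, limma adjusted p = 0.0620), and a dimmer probe gave 0.25 there and -0.08 after ADDL+CAT-SKL. Grik2, a pore-forming subunit gene widely used by principal neurons, had -0.21 and -0.08 on the CAT-SKL arrays, -0.26 and -0.14 on the ADDL arrays, -0.15 and -0.13 on the CAT-SKL+ADDL arrays and 0.01 and -0.06 on the ADDL+CAT-SKL arrays. The ADDL+CAT-SKL arrays were again nearest to vehicle, and the ADDL change of -0.20 ± 0.06 (SE, n = 2, adjusted p = 0.143) did not pass. Grik3 ranged between -0.18 and 0.14, Grik4 between -0.08 and 0.09 and Grik5 between -0.28 and -0.02, with Grik5 below vehicle on 8 of 8 arrays.

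Metabotropic receptors, which signal through G proteins, had class medians between -0.02 and 0.03 in the 4 groups. Grm7, a presynaptic receptor that restrains release, had -0.22 and 0.27 on the CAT-SKL arrays, -0.31 and -0.31 on the ADDL arrays, -0.14 and -0.21 on the CAT-SKL+ADDL arrays and 0.15 and 0.20 on the ADDL+CAT-SKL arrays. The ADDL arrays were the lowest and both ADDL+CAT-SKL arrays were above vehicle, while the CAT-SKL arrays disagreed in sign. The ADDL change was -0.31 ± 0.10 (SE, n = 2, limma adjusted p = 0.153). Grm4, another presynaptic receptor, had -0.27 and -0.20 after CAT-SKL, -0.12 and -0.03 after ADDL, -0.18 and -0.23 after CAT-SKL+ADDL and -0.08 and 0.19 after ADDL+CAT-SKL. It was below vehicle on 7 of the 8 arrays, and the CAT-SKL change was -0.24 ± 0.07 (SE, n = 2, adjusted p = 0.113), or -0.11 with median centring (adjusted p = 0.516). Grm2 ranged between -0.02 and 0.14, Grm3 between -0.15 and 0.29, Grm5 between -0.16 and 0.09 and Grm8 between -0.26 and 0.12.

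Among scaffolds, Lrrc7 had the lowest ratio of the 43 genes in 3 of the 4 groups, and it fell after CAT-SKL. Lrrc7 encodes densin-180, a leucine-rich repeat protein of the postsynaptic density that binds CaMKII. It stood at -0.78 and -0.46 on the CAT-SKL arrays, -0.42 and -0.43 on the ADDL arrays, -0.65 and -0.62 on the CAT-SKL+ADDL arrays and -0.31 and -0.24 on the ADDL+CAT-SKL arrays. Every array was below vehicle, the ADDL+CAT-SKL arrays were the least so, and those of ADDL did not overlap with any other group. In log2 intensity after quantile scaling, Lrrc7 was between 9.88 and 10.33 in the treated channels and between 10.57 and 10.66 in the vehicle channels. The channels did not overlap, but their levels were computed from the same ratios, with treated RNA always in Cy5. This separation therefore restates the ratios and takes in any dye effect.

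The Lrrc7 change was -0.62 ± 0.08 after CAT-SKL (SE, n = 2, limma adjusted p = 0.0243), the other of the 2 genes past the threshold. It was -0.42 ± 0.08 after ADDL (n = 2, adjusted p = 0.0723), -0.64 ± 0.11 after CAT-SKL+ADDL (n = 1, adjusted p = 0.201) and -0.28 ± 0.08 after ADDL+CAT-SKL (n = 2, adjusted p = 0.130). Here both probes had the same sign in the first 3 groups: the dimmer one gave -0.46, -0.36 and -0.45 after CAT-SKL, ADDL and CAT-SKL+ADDL, and -0.00 after ADDL+CAT-SKL. Lrrc7 passed after CAT-SKL in 13 of 18 other settings, with a log2 change between -0.78 and -0.46. Without CAT-SKL 1 the adjusted p was 0.320, and without ADDL 1 or ADDL 2 it was 0.0502.

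**Figure D2:**
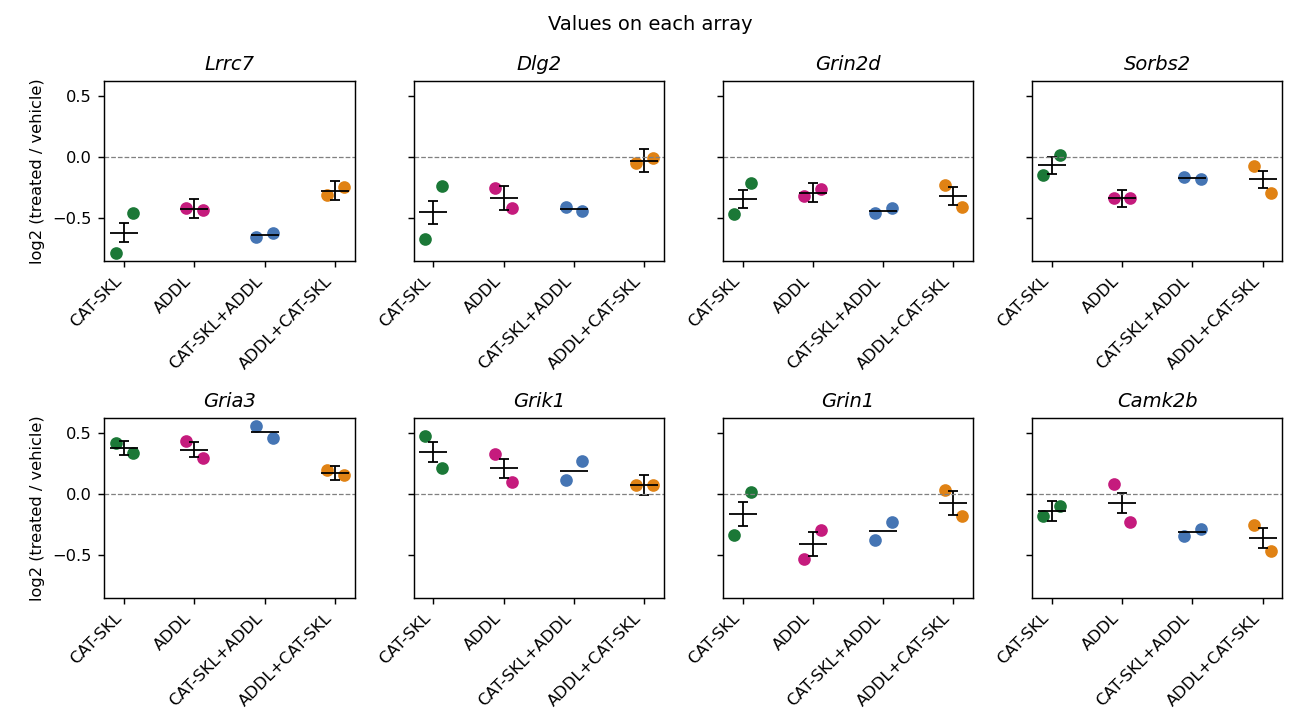
Log2 ratio of treated over vehicle (vertical axis) on each array (points) for 8 genes in the 4 treatments (horizontal axis), with the group mean as a bar and the standard error of limma as whiskers; CAT-SKL+ADDL counts as 1 sample and has a mean only. Lrrc7 and Grin2d lie below 0 and Gria3 and Grik1 above 0 on all 8 arrays, and the ADDL+CAT-SKL means of Lrrc7, Dlg2, Gria3, Grik1 and Grin1 are the nearest to 0.

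Dlg2 encodes PSD-93, a relative of PSD-95 that clusters NMDA receptors and potassium channels, and it is named here after its values were seen. It had -0.67 and -0.24 on the CAT-SKL arrays, -0.25 and -0.42 on the ADDL arrays, -0.41 and -0.44 on the CAT-SKL+ADDL arrays and -0.05 and -0.01 on the ADDL+CAT-SKL arrays. The ADDL+CAT-SKL arrays were at the vehicle level and apart from all the others. The CAT-SKL change was -0.45 ± 0.10 (SE, n = 2, limma adjusted p = 0.0514), just over the threshold. The other members of this family were closer to 0: Dlg1 ranged between -0.15 and 0.08, Dlg3 between -0.22 and 0.10, and Dlg4, the gene of PSD-95 itself, between -0.27 and 0.02. Their mean vehicle levels (log2 intensity after quantile scaling) were lower, at 6.24 for Dlg1, 8.85 for Dlg3 and 7.03 for Dlg4, against 11.05 for Dlg2. The offset of the background correction shrinks the ratios of dim genes most, so these ranges are not on equal terms with that of Dlg2.

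The promoter windows of Lrrc7, which fell, and of Dlg2, Grin2d and Grik1, the genes nearest to the threshold after CAT-SKL, are printed because the CAT-SKL result turns on these genes; each covers 250 bases before to 50 after the annotated start, from RefSeq on the GRCr8 assembly. Such a window was at hand for 29 of the 43 genes, Gria3 not among them. The 4 windows lie at chr2:250293669-250293968 on the minus strand (Lrrc7), chr1:154539421-154539720 on the plus strand (Dlg2), chr1:105481187-105481486 on the minus strand (Grin2d) and chr11:41056454-41056753 on the minus strand (Grik1). Capitals mark a GC box, the letters GGGCGG on either strand.
Lrrc7 promoter: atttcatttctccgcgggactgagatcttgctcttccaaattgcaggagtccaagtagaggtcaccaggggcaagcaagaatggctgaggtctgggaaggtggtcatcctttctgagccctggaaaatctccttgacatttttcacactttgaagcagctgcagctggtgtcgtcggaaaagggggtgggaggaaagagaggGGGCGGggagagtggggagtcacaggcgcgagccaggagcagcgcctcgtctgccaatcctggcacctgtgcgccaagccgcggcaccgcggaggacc
Dlg2 promoter: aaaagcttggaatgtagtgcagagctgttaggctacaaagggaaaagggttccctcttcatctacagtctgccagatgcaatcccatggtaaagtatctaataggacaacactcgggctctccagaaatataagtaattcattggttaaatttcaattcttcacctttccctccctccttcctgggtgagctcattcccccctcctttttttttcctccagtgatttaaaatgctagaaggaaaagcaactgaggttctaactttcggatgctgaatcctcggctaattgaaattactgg
Grin2d promoter: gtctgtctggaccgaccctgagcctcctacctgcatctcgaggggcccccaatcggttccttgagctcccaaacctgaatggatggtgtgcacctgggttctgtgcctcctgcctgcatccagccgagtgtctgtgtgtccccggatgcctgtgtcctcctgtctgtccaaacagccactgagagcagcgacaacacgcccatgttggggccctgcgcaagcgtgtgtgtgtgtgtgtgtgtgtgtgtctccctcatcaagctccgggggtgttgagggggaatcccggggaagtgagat
Grik1 promoter: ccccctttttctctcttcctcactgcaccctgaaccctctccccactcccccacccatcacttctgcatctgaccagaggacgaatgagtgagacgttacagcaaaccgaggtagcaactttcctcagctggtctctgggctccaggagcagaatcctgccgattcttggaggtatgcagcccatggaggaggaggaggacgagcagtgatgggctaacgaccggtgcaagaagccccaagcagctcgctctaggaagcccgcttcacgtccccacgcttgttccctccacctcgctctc

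Of these 4 windows, that of Lrrc7 holds the only GC box. Over the 29 windows, 10 (34.5%) held GGGCGG on either strand, against 33.1% of 33469 promoters. The cyclic AMP response element TGACGTCA was in 0 of 29 windows, against 1.83% of all promoters. Its half-site TGACG, which the full element contains, was in 3 of 29 (10.3%), against 21.2%. The core of the antioxidant response element, TGACNNNGC, which can overlap a half-site, was in 1 of 29 (3.45%), against 12.1%. The median GC content was 60.3% in the 29 windows and 51.7% over all promoters. These are matches of letters only.

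Sorbs2, which encodes an adaptor of the actin cytoskeleton, had -0.15 and 0.01 on the CAT-SKL arrays, -0.34 and -0.33 on the ADDL arrays, -0.16 and -0.18 on the CAT-SKL+ADDL arrays and -0.08 and -0.29 on the ADDL+CAT-SKL arrays. The ADDL arrays were the lowest and agreed closely, yet the change of -0.34 ± 0.07 (SE, n = 2, limma adjusted p = 0.0748) did not pass, and the dimmer probe averaged -0.08; with the mean of both the change was -0.21 (adjusted p = 0.185). Dlgap2, of the SAPAP family that links PSD-95 to SHANK proteins, is named after its values were seen, because ADDL+CAT-SKL separated from every other treatment: it had -0.27 and 0.08 after CAT-SKL, -0.07 and 0.08 after ADDL, -0.10 and -0.14 after CAT-SKL+ADDL and 0.33 and 0.37 after ADDL+CAT-SKL. Both ADDL+CAT-SKL values exceeded all 6 others, with a change of 0.35 ± 0.08 (SE, n = 2, adjusted p = 0.0985), and the dimmer probe gave 0.18. Shank3, also named after its values were seen, was positive on 8 of 8 arrays, between 0.05 and 0.24, but its dimmer probe averaged between -0.08 and 0.10 in the 4 groups. Shank1 ranged between -0.17 and 0.19, Shank2 between -0.20 and 0.01, Homer2 between -0.17 and 0.17, Homer3 between -0.14 and 0.13 and Dlgap1 between -0.22 and 0.12.

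Of the CaMKII subunits, Camk2a, the gene of the alpha subunit, ranged between -0.08 and 0.10. It was dim, with a mean vehicle level of 6.59 in log2 intensity, against 11.35 for Camk2b. Camk2b, whose beta subunit binds actin, had -0.18 and -0.10 on the CAT-SKL arrays, 0.08 and -0.23 on the ADDL arrays, -0.35 and -0.29 on the CAT-SKL+ADDL arrays and -0.26 and -0.47 on the ADDL+CAT-SKL arrays. The ADDL arrays disagreed in sign. The ADDL+CAT-SKL change was -0.36 ± 0.08 (SE, n = 2, limma adjusted p = 0.0919). The dimmer probe was below vehicle on every array but ordered the groups differently, with -0.36 after CAT-SKL, -0.13 after ADDL, -0.43 after CAT-SKL+ADDL and -0.15 after ADDL+CAT-SKL. Among the neuroligins, Nlgn1, found at excitatory synapses, had -0.12 and -0.15 after CAT-SKL, -0.14 and -0.09 after ADDL, -0.34 and -0.16 after CAT-SKL+ADDL and 0.08 and -0.22 after ADDL+CAT-SKL. Nlgn2, found at inhibitory synapses, had 0.14 and 0.16 after CAT-SKL, 0.14 and 0.04 after ADDL, 0.05 and 0.06 after CAT-SKL+ADDL and -0.02 and 0.08 after ADDL+CAT-SKL. Nlgn1 was below vehicle on 7 of 8 arrays. The brighter Nlgn2 probe was above vehicle on 7 of 8, but its dimmer probe averaged -0.07, -0.23, -0.11 and -0.00 in the 4 groups in the same order, so the probes disagreed. The Nlgn1 change after CAT-SKL+ADDL was -0.25 ± 0.10 (n = 1, adjusted p = 0.427), the Nlgn2 change after CAT-SKL was 0.15 ± 0.06 (SE, n = 2, adjusted p = 0.183; 0.27 with median centring in place of loess and 0.04 with the mean of both probes), and Nlgn3 ranged between -0.05 and 0.06.

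Several genes had more than 1 probe, which gave a check within the same RNA. For 16 of the 43 genes there were 17 further probes, and in 30 of 68 gene-by-group comparisons a further probe differed in sign or by more than 0.3 from the brighter one. The plot of both probes shows the contrast between Lrrc7, where the probes ran in parallel, and Gria3, where they did not.

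**Figure D3:**
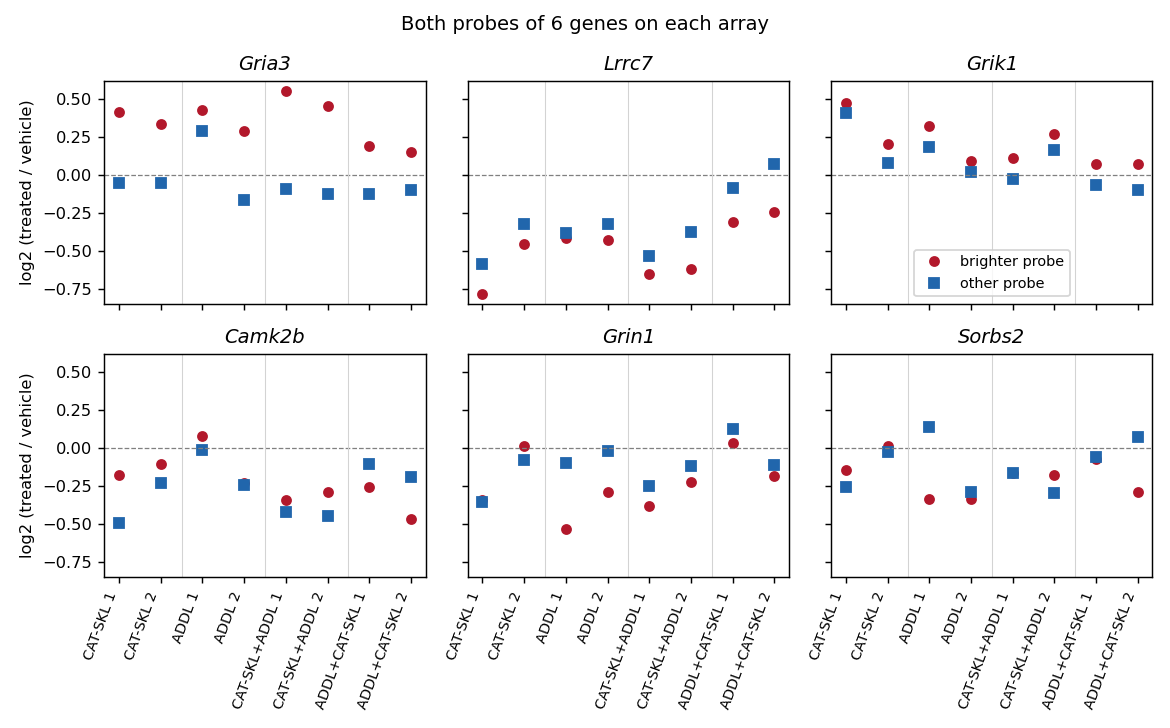
Log2 ratio of treated over vehicle (vertical axis) on each array (horizontal axis) for the brighter probe (circles), which represents the gene in the tests, and the other probe (squares) of 6 genes. The probes of Lrrc7 are both below 0 on 7 arrays, whereas the brighter probe of Gria3 is above its other probe on all 8.

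Counted with an unadjusted p below 0.05, genes lower than vehicle made up a larger share of the 43 than of all genes in each treatment. After CAT-SKL, 9 of 43 (20.9%) were lower, against 11.6% of all genes, and 5 were higher, against 9.6%. After ADDL, 15 of 43 (34.9%) were lower, against 9.18%, and 4 (9.3%) were higher, against 9.83%. The 15 were Gria1, Cnih2, Cacng2, Grin1, Grin2a, Grin2b, Grin2d, Grik2, Grm7, Dlg2, Dlg3, Dlg4, Shank2, Lrrc7 and Sorbs2, which include 4 of the 6 NMDA subunits and 6 of the 13 scaffolds. After CAT-SKL+ADDL, 9 (20.9%) were lower, against 6%, and 1 was higher, against 5.32%. After ADDL+CAT-SKL, 6 (14%) were lower, against 9.53%, and 3 were higher, against 8.07%. With adjustment over all genes 0 of the 43 passed after ADDL, CAT-SKL+ADDL or ADDL+CAT-SKL in limma, where 0%, 0% and 0.454% of all genes did. If the CAT-SKL+ADDL arrays were entered as separate samples, 7 of 43 passed after CAT-SKL (8.1% of all genes), 7 after ADDL (4.34%), 9 after CAT-SKL+ADDL (10.3%) and 3 after ADDL+CAT-SKL (3.94%). Without both of these arrays the numbers were 2 after CAT-SKL, 0 after ADDL and 0 after ADDL+CAT-SKL.

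**Figure D4:**
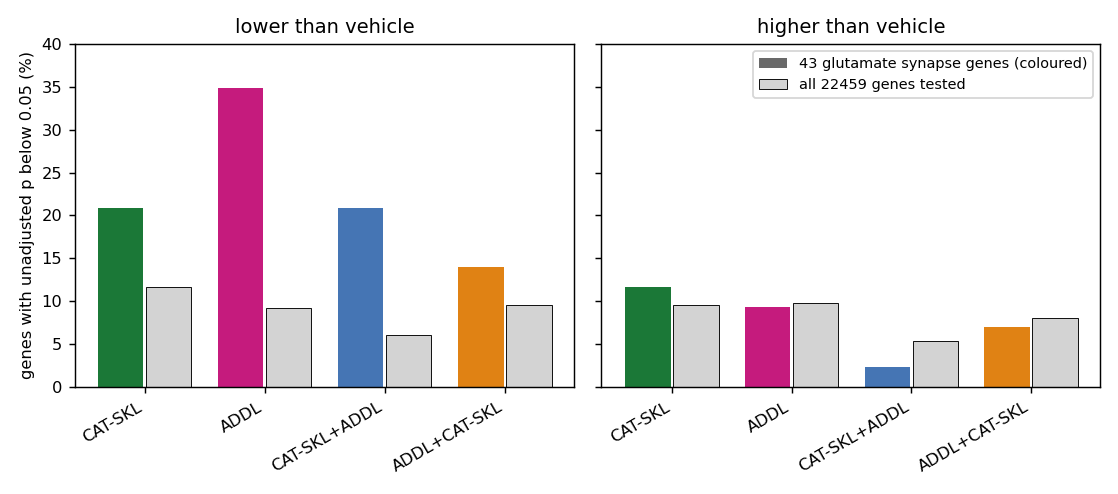
Percentage of genes with an unadjusted p below 0.05 in limma (vertical axis) that were lower (left) or higher (right) than vehicle in each treatment, for the 43 glutamate synapse genes (coloured bars) and all 22459 genes tested (grey bars). The share of lower genes after ADDL is 34.9% among the 43 and 9.18% among all genes, and the shares of higher genes are at most 11.6% among the 43.

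Receptors were then set against scaffolds. The median of the 21 receptor subunits and metabotropic receptors minus that of the 13 scaffolds was 0.000254 and 0.00572 on the CAT-SKL arrays, 0.0436 and 0.0355 on the ADDL arrays, 0.0416 and 0.00400 on the CAT-SKL+ADDL arrays and 0.0490 and -0.0312 on the ADDL+CAT-SKL arrays. The pooled SD within groups, with the CAT-SKL+ADDL arrays counted as separate, was 0.0315. The differences on single arrays were of the size of this spread, and on 7 of 8 arrays the receptors were slightly the higher. Taken over group means, the receptor median was -0.01 after CAT-SKL, -0.06 after ADDL, -0.07 after CAT-SKL+ADDL and -0.02 after ADDL+CAT-SKL, and the scaffold median -0.06, -0.12, -0.07 and -0.03 in that order. Within the scaffolds, group means ran between -0.62 (Lrrc7) and 0.21 (Shank3) after CAT-SKL and between -0.42 (Lrrc7) and 0.17 (Shank3) after ADDL.

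Between treatments, no gene passed in limma, neither among the 43 nor among all genes (0%). ADDL+CAT-SKL was set against ADDL to ask whether the antioxidant given after the oligomers changes their effect. Here 16 of 43 genes (37.2%) were higher on both ADDL+CAT-SKL arrays than on both ADDL arrays, against 19.1% of all genes, and 9 (20.9%) were lower, against 20.6%. Among the 16 were Grin1, Grin2a, Grin2b, Grik2, Grm7, Dlg2, Dlg4, Lrrc7 and Sorbs2. This comparison shares the ADDL arrays with that of ADDL and vehicle. The unadjusted p was below 0.05 for 4 genes that were higher (9.3%), against 3.73% of all genes, and for 2 that were lower, against 4.67%. The difference was 0.49 ± 0.14 for Grm7, 0.34 ± 0.12 for Dlgap2, 0.34 ± 0.14 for Grin1 and 0.19 ± 0.07 for Grin2a, and it was -0.24 ± 0.09 for Grm3 and -0.29 ± 0.12 for Camk2b (SE, n = 2 each), all with adjusted p of 0.573 to 0.586. On dimmer probes the groups lay close for Grin1 (-0.06 after ADDL, 0.01 after ADDL+CAT-SKL) and Camk2b (-0.13 and -0.15). The dimmer Dlgap2 probe kept the direction, with -0.14 after ADDL and 0.18 after ADDL+CAT-SKL.

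CAT-SKL+ADDL, in which the antioxidant came first, was also set against ADDL. Of the 43 genes 8 (18.6%) were higher without overlap, against 22.4% of all genes, and 13 (30.2%) were lower, against 24.9%. Counts without overlap, here and against ADDL+CAT-SKL, read the CAT-SKL+ADDL arrays singly, although they differ within spot noise and are 1 sample in the fit. The shares of all genes were counted in the same way. An unadjusted p below 0.05 was reached by 1 higher gene, Gria4 (0.25 ± 0.10, against 1.44% of all genes), and by 0 lower ones, against 2.46%. The dimmer Gria4 probe ran the other way, at -0.18 after CAT-SKL+ADDL and 0.02 after ADDL. Set against ADDL+CAT-SKL, CAT-SKL+ADDL was higher without overlap in 8 genes (18.6%), against 24.5% of all genes, and lower in 17 (39.5%), against 24.8%. The unadjusted limma p was below 0.05 in this comparison of the orders of treatment for 2 genes that were higher, against 2.93% of all genes, and for 4 that were lower (9.3%), against 2.7%. The differences were -0.47 ± 0.15 for Dlgap2, -0.40 ± 0.17 for Dlg2, -0.36 ± 0.13 for Lrrc7 and -0.21 ± 0.09 for Cacng2, against 0.33 ± 0.10 for Gria3 and 0.26 ± 0.11 for Grm3, each with adjusted p = 0.857. On its dimmer probe Gria3 had -0.11 in both of these groups, so its difference rested on the brighter probe. The dimmer probes of Dlgap2 (-0.08 after CAT-SKL+ADDL, 0.18 after ADDL+CAT-SKL) and Lrrc7 (-0.45 and -0.00) kept the direction. CAT-SKL alone differed from ADDL alone without overlap in 6 genes that were higher (14%), against 18.3% of all genes, and in 7 that were lower (16.3%), against 22%. An unadjusted p below 0.05 was reached by 3 higher genes, against 3.45% of all genes, and by 0 lower ones, against 5.25%. The 3 were Grm7 at 0.34 ± 0.14, Sorbs2 at 0.27 ± 0.10 and Dlg3 at 0.25 ± 0.09 (limma adjusted p = 0.566, 0.550 and 0.559). The dimmer Sorbs2 probe had the opposite order, -0.14 after CAT-SKL and -0.08 after ADDL.

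Marker genes of the cell types in such cultures were read beside these values. Neuron markers (8 of 9 listed genes tested, all 8 well above background on every array) had a summed level between 0.945 and 1.09 of vehicle over the 8 arrays. Single members went both ways: after ADDL+CAT-SKL, Slc17a6 rose by 0.41 ± 0.06 (SE, n = 2, limma adjusted p = 0.0446), while Tubb3 had -0.41 ± 0.09 (adjusted p = 0.0835) and Slc17a7 -0.26 ± 0.07 (adjusted p = 0.115). Astrocyte markers (10 of 11 tested, among them Gfap, Aqp4, Gja1 and Slc1a3) had summed levels of 2.28 and 1.22 of vehicle on the CAT-SKL arrays, 1.48 and 2.13 on the ADDL arrays, 2.03 and 1.94 on the CAT-SKL+ADDL arrays and 1.26 and 0.977 on the ADDL+CAT-SKL arrays. All 10 were above vehicle on 6 arrays, 7 in CAT-SKL 2 and 2 in ADDL+CAT-SKL 2, and 0 passed the threshold in limma in any group, while 7, 10, 7 and 0 of them were higher with an unadjusted p below 0.05 after CAT-SKL, ADDL, CAT-SKL+ADDL and ADDL+CAT-SKL, against 9.6%, 9.83%, 5.32% and 8.07% of all genes. Oligodendrocyte lineage markers (8 of 8 tested) had summed levels of 1.87 and 1.10, 1.48 and 1.49, 1.76 and 1.78, and 0.980 and 0.800 in the same order, with Pdgfra, Olig2 and Sox10 past the threshold after CAT-SKL. Microglia markers (7 of 8 tested) ran between 0.846 and 1.55 of vehicle and dividing cell markers (4 of 6 tested) between 1.05 and 1.63, with Birc5 of the dividing cell list past the threshold after CAT-SKL (0.37 ± 0.07, adjusted p = 0.0420). Of the markers tested, 10 of 10 astrocyte, 7 of 8 oligodendrocyte lineage and 7 of 7 microglia markers were well above background on all 8 arrays of both channels.

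**Figure D5:**
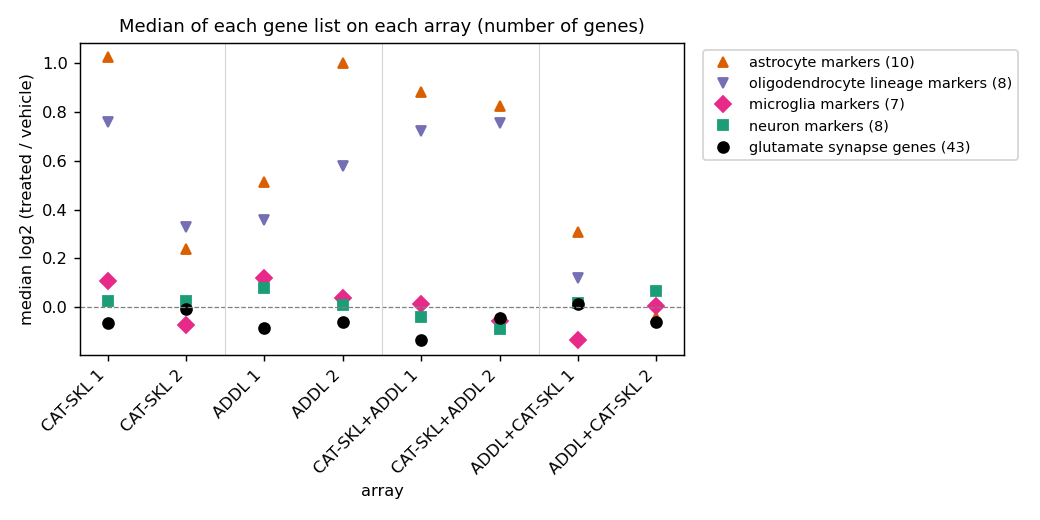
Median log2 ratio of treated over vehicle (vertical axis) of 4 cell type marker lists and the 43 glutamate synapse genes (symbols, with the number of genes tested) on each array (horizontal axis). Astrocyte marker medians run between -0.04 and 1.03, and those of neuron markers and of the 43 genes stay between -0.14 and 0.08.

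Lrrc7 was lowest on the array with the highest astrocyte median, -0.78 beside 1.03 in CAT-SKL 1, and highest on the array with the lowest, -0.24 beside -0.04 in ADDL+CAT-SKL 2. Of the arrays between, CAT-SKL 2 and ADDL 2 were out of this order, with -0.46 beside a median of 0.24 and -0.43 beside 1.00. The others kept it: Lrrc7 had -0.31 beside 0.31 in ADDL+CAT-SKL 1 and -0.42 beside 0.51 in ADDL 1. On the CAT-SKL+ADDL arrays Lrrc7 had -0.65 and -0.62 beside 0.88 and 0.83. Gria3 had 0.41 and 0.33 on the CAT-SKL arrays, beside medians of 1.03 and 0.24. It had 0.43 and 0.29 beside 0.51 and 1.00 on the ADDL arrays, and 0.55 and 0.46 beside 0.88 and 0.83 on the CAT-SKL+ADDL arrays. On the ADDL+CAT-SKL arrays Gria3 was lowest, with 0.19 and 0.15 beside 0.31 and -0.04. The part of glial RNA in these results was not tested.

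Further genes of the excitatory synapse gave 3 calls after CAT-SKL. From a list of 41 other glutamate synapse genes, 36 were tested, and 1 rose and 2 fell, against 0.837% of all genes that rose and 1.78% that fell. Ppp1r9a, which encodes neurabin, an actin-binding protein of spines, had -0.55 and -0.26 on the CAT-SKL arrays and fell by 0.40 ± 0.08 (SE, n = 2, limma adjusted p = 0.0430). Neto1, an auxiliary subunit of kainate and NMDA receptors, had 0.33 and 0.26 and rose by 0.29 ± 0.05 (adjusted p = 0.0393). In the other groups 0 of the 36 passed in limma, while an unadjusted p below 0.05 was reached by 3 higher and 7 lower genes after ADDL (against 9.83% and 9.18% of all genes), 1 and 7 after CAT-SKL+ADDL (against 5.32% and 6%), and 2 and 6 after ADDL+CAT-SKL (against 8.07% and 9.53%). Genes with small p were Nptxr (-0.29 ± 0.06) and Lrrtm4 (-0.28 ± 0.06) after ADDL (adjusted p = 0.0727 and 0.0770), Ppp1r9a (-0.45 ± 0.11) after CAT-SKL+ADDL (adjusted p = 0.205), and Neto1 (0.31 ± 0.05) and Cacng5 (-0.36 ± 0.07) after ADDL+CAT-SKL (adjusted p = 0.0540 and 0.0705). The median of the 36 was -0.08 after CAT-SKL, -0.05 after ADDL, -0.10 after CAT-SKL+ADDL and -0.04 after ADDL+CAT-SKL, against -0.00 for all genes.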

How the data were processed

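Expression was read on 8 two-colour Agilent arrays of 1 slide. Per the file headers, the deposited scanner tables give spot intensity and local background intensity as median pixel values per channel. They also give a log10 ratio of Cy5 over Cy3, deposited after background subtraction and dye normalisation in Agilent Feature Extraction 11.5 (submitters' processing notes). Other deposited values are spot flags of 0 or 1 for outliers, saturation and signal above background, per the file headers.

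Intensities were corrected with normexp (offset 50) and loess within each array, control spots at weight 0, using limma 3.58.1 in R 4.3.3. Medians served because mean signals are not in the tables used here. Outlier spots (902 to 1262 per array) were dropped, 0 spots were saturated, and duplicate spots were averaged. Probes well above background on at least 2 of 8 arrays were tested, with the brightest one standing for its gene. Names came from matching each probe's accession to the RefSeq table of GRCr8. Median Cy5 signals ran between 87.5 and 127.5, over backgrounds of 23.5 to 26; precision is limited by having few arrays. Channel levels, where given, were scaled with Aquantile.

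Groups were fitted in limma (lmFit, eBayes) over all 22459 genes and 7 samples, with 3 residual and 5.05 prior degrees of freedom and Benjamini-Hochberg adjustment over all genes of a comparison. Counting the CAT-SKL+ADDL arrays as 1 sample followed the comparison of duplicate spots. The p-values measure the spread among these samples, and errors are standard errors of the fit. Values on every array are given for genes past the threshold and for the 2 genes of each class (1 for CaMKII) with the smallest p against vehicle; genes outside this rule are named as such, and a few genes of the further lists are counted but not reported here by name. The members, the lists and the rule were chosen with earlier results of these data known. The fit was tested on simulated data. Alternatives changed the background correction, normalisation, filter, choice of probe, pairing and arrays used.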

Additional observations from a re-analysis of the deposited data

How the results depend on the processing

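The number of the 43 genes past the threshold after CAT-SKL, 2 with the chosen processing, was 7 with 8 separate samples, 4 with median centring instead of loess, 4 with a stricter filter on dim probes, 1 with the mean of all probes of a gene, 1 with only the arrays of the same slide row and 0 with the deposited log ratios. Leaving out 1 array at a time gave 0 to 2, with 0 without CAT-SKL 1 or either ADDL array. After ADDL the number, 0 before, was 7 with 8 separate samples, 2 with median centring and 0 to 3 leaving out 1 array, with 3 without either CAT-SKL array (329 of all genes). After CAT-SKL+ADDL it was 9 with 8 separate samples and 1 with median centring, and after ADDL+CAT-SKL 3 with 8 separate samples. Over all genes, 588 passed after CAT-SKL, against 1820 with 8 separate samples, 1819 with median centring, 846 with the stricter filter, 275 with no filter, 226 with 1 slide row and 0 with the deposited log ratios; 0 of all genes passed after ADDL or CAT-SKL+ADDL and 102 after ADDL+CAT-SKL, against 430, 325 and 374 with median centring and 975, 2322 and 886 with 8 separate samples. With the replicate block in the fit, 0 of the 43 passed after CAT-SKL (limma adjusted p = 0.0575 for Lrrc7 and 0.0674 for Gria3) and 6 of all genes. Same-numbered arrays did not deviate together (correlations between -0.202 and 0.0784). A preparation shared by treated and vehicle RNA would cancel in these ratios, and the CAT-SKL+ADDL arrays differ within spot noise. The correlations therefore cannot tell whether same-numbered arrays share a culture.

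Receptors minus scaffolds, taken here over group means, was 0.0528 after CAT-SKL, above the values of the single CAT-SKL arrays (0.000254 and 0.00572). It was 0.146 with the deposited log ratios, 0.0871 with median centring and 0.000254 to 0.0528 leaving out 1 array. After ADDL, 0.0634 became 0.132 with the deposited log ratios, 0.0206 with median centring, 0.111 without background correction and 0.0966 with the mean of all probes. After CAT-SKL+ADDL, -0.00123 became 0.0348 with the mean of all probes and -0.00123 to 0.0416 leaving out 1 array, and after ADDL+CAT-SKL, 0.00988 became -0.0312 to 0.0490. The causes were not tested. Counted once per gene and alternative, the log2 changes of the named genes changed sign in 0 cases, lost the threshold in 15, gained it in 15 and did neither in 275. The 15 losses were those of Gria3, which passed in 8 of 18 alternatives, and Lrrc7, which passed in 13 of 18. With the deposited log ratios the changes were -0.41 for Gria1 and 0.64 for Grik1 after CAT-SKL, -0.35 for Grik2 and -0.73 for Grin1 after ADDL and -0.47 for Nlgn1 after CAT-SKL+ADDL, over 1.5 times those reported. The mean vehicle levels of these genes were the lowest of those counted here, between 6.80 (Gria1) and 7.61 (Grik2). Those of the others ran between 7.72 (Dlgap2) and 14.38 (Grin2d), in log2 intensity after quantile scaling. Grik4 (6.24), Dlg1 (6.24), Shank2 (6.30) and Camk2a (6.59) were dimmer still and were not compared in this way. An offset added to both channels shrinks the ratios of dim spots more than those of bright ones. Without background correction, which also leaves out the normexp offset of 50, Gria1 had -0.26 and Grik1 0.47 after CAT-SKL. Grin1 had -0.52 and Grik2 -0.25 after ADDL, and Nlgn1 -0.31 after CAT-SKL+ADDL. The bright Grin2d and Cacng2 kept -0.34 and -0.19 after CAT-SKL. The offset was not varied alone, so its part in these differences was not tested. Leaving out both CAT-SKL+ADDL arrays was chosen after seeing the data and changed no count.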

Other observations

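The inhibitory synapse was read on the same arrays from a list of 18 genes of GABA and glycine receptors and their scaffold, all 18 tested. Gabra2, a GABA receptor subunit, had -0.69 and -0.30 on the CAT-SKL arrays and fell by 0.49 ± 0.10 (SE, n = 2, limma adjusted p = 0.0499), 1 of 18, against 2.62% of all genes. It had -0.15 and -0.46 on the ADDL arrays, -0.57 and -0.57 on the CAT-SKL+ADDL arrays and -0.32 and -0.20 on the ADDL+CAT-SKL arrays, all below vehicle. After ADDL, Glra2, a glycine receptor subunit, had 0.60 and 0.34 (adjusted p = 0.0888), and 0 of the 18 passed there or in the sequential treatments in limma. An unadjusted p below 0.05 was reached by 2 higher and 4 lower genes after ADDL (against 9.83% and 9.18% of all genes), 1 and 4 after CAT-SKL+ADDL (against 5.32% and 6%), and 0 and 2 after ADDL+CAT-SKL (against 8.07% and 9.53%). Glrb had -0.21 and -0.33 after ADDL+CAT-SKL. The median of the 18 was -0.03 after CAT-SKL, 0.04 after ADDL, -0.01 after CAT-SKL+ADDL and -0.05 after ADDL+CAT-SKL.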
